A study of Mus musculus with 8 samples.

Results

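The second day of activation was followed in CD8+ T cells labelled dKO by comparing the libraries taken at 48 h with those taken at 24 h. The members are the 4 libraries that the labels give to this genotype, 2 at each time, of 8 libraries in all. The cells were naive CD8+ T cells of mice with Cre recombinase under Cd8 control and floxed alleles of Nr4a1 and Nr4a2 (Cd8Cre Nr4a1 flox/flox Nr4a2 flox/flox). Both times shared the same stimulation in culture, with anti-CD3 at 2 µg/ml, anti-CD28 at 1 µg/ml and IL2 at 10 ng/ml. The other 4 libraries were of wild-type (WT) littermate cells treated alike and are used here for the spread between replicates and for 1 comparison at the end. The genes chosen for description had both libraries of one time above both of the other and a mean of at least 20 counts over the 4 libraries, and some listed genes that did not meet this are given beside them. Of 24976 symbols in the count table, 12742 had enough counts to be tested and 439 met both conditions together with an adjusted p below 0.05, 212 of them higher and 227 lower at 48 h.

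Antibodies against CD3 and CD28 stand in for the antigen and costimulatory signals that a naive CD8+ T cell receives in the body. Such a cell first leaves rest and grows, making immediate early transcription factors, cytokines and chemokines, and then enters cycles of fast division while it builds the granules with which it kills. Nr4a1, Nr4a2 and Nr4a3 encode orphan nuclear receptors, quickly induced by antigen, that act on later gene programmes, exhaustion among them.

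The 2 floxed genes were read in every library first. Nr4a1 (chromosome 15, 101254269 to 101274795, GRCm38) stood at 532 and 505 CPM at 24 h and 633 and 668 CPM at 48 h in the libraries labelled dKO, and at 525 and 275 CPM and 879 and 777 CPM in WT. Nr4a2 (chromosome 2, 57106830 to 57124003) stood at 142 and 136 CPM and 75.3 and 77.1 CPM in the libraries labelled dKO, above both WT groups at 59.7 and 49.1 CPM and 24.5 and 33.1 CPM. The labels do not say which exons the Cre removes, and counts per symbol can come from exons that remain, so these values do not check the deletion, and the genotype is given throughout as the label. CPM is edgeR's depth-scaled count, here with TMM factors. Total counts in the 4 libraries ran from 5000952 to 8278058. The summed level of the 9 markers of CD8 T cells ran from 2013 to 2211 CPM, and Cd8a, a chain of the CD8 coreceptor, was at 661 and 682 CPM at 24 h and 655 and 681 CPM at 48 h. Markers of other cells were low. The 8 B cell markers summed to between 4.16 and 5.06 CPM with 4 of them at 0 in all 4 libraries, and the 16 myeloid markers to between 53.2 and 65.1 CPM with 6 at 0. The 6 markers of CD4 and regulatory T cells summed to between 19.3 and 27.1 CPM, and the 17 of red cells, platelets and stroma to between 15 and 22.1 CPM with 9 at 0. The 7 markers of NK and gamma delta T cells summed to 25.1 and 23.6 CPM at 24 h and 61.2 and 56.8 CPM at 48 h, nearly all of it Zbtb16, a transcription factor of innate-like lymphocytes that was not called, and its part in the results was not tested. A set of 145 genes, chosen after the data were seen for keeping a near-constant ratio to 4 genes known from muscle (Csrp3) and testis (Odf4, Ropn1 and Tnp2), took 6.93% and 6.64% of all counts at 24 h and 9.98% and 9.61% at 48 h. In WT the set took 9.79% and 7.03% at 24 h and 18.37% and 19.05% at 48 h. Over all 8 libraries 0 of the 145 were called between the times in the cells labelled dKO. In a fit of the 4 libraries labelled dKO alone 145 were called. Their log2 fold changes ran from 0.53 to 0.78. The ratio was taken over 6 libraries, those other than WT at 24 h, and these include the 4 labelled dKO. The narrow range and the shared calls therefore follow from the choice and are no separate finding. The part of these genes in the results was not tested.

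Over the second day the cells labelled dKO raised genes of mitosis and of cholesterol and fatty acid synthesis, the granzyme gene Gzmb and the receptor gene Ctla4. Chemokine and interleukin genes such as Xcl1, Ccl3, Ccl1 and Il2 fell. By edgeR's quasi-likelihood test over all 8 libraries, 224 of 12742 genes (1.76%) were higher and 239 (1.88%) lower at 48 h, 3.63% in all. Of these, 124 rose and 161 fell by more than 1 on the log2 scale, and the median over all tested genes was -0.01. Scaling by library size alone gave 143 higher and 594 lower and moved that median to -0.18, so directions near 0 depend on the scaling. Over TMM, DESeq2-style and library-size scaling, 11 of the 38 gene lists changed the sign of their median, the receptor signalling chain, G1, cytotoxic and trafficking lists among them. Both libraries of one time lay above both of the other for 7381 of the 10566 tested genes with a mean of 20 or more counts (69.9%), so lack of overlap was common.

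The number of calls changed widely with the libraries that entered the fit. A fit of the 4 libraries labelled dKO alone, with a common dispersion of 0.00317 against 0.0246 over all 8, called 2386 of 12195 genes higher (19.6%) and 2159 lower (17.7%), 37.3% in all, and its counts are given beside those of the lists. That fit reuses the values by which the 439 genes were chosen, so its calls are no separate check of them. Leaving out dKO 24 h replicate 1 left 21 higher and 13 lower, and without replicate 2 there were 33 and 36. Without dKO 48 h replicate 1 there were 31 and 11, and without replicate 2 there were 24 and 8. Leaving out a WT 48 h library gave 1769 and 1533 (replicate 1) or 1672 and 1586 (replicate 2), and leaving out a WT 24 h library gave 330 and 152 (replicate 1) or 328 and 155 (replicate 2). In each of the 38 gene lists the lowest counts of calls with 1 library left out came without a library labelled dKO and the highest without a WT 48 h library, ties included. Leaving out a library labelled dKO leaves 1 library at one time of the comparison itself, so the lowest counts are no separate finding. Lists without calls, such as the B cell markers, tied at 0. In all, 25 genes were called in the same direction whichever library was left out, 20 higher and 5 lower, among them Cdc20, Cenpa, Ccnb2, Ccnb1, Aurka, Ube2c, Gzmb, Ctla4, Cd80, Spp1, Socs2, Batf3, Lgals1, Scd2 and Klrk1 (higher) and Ccl1, Ccl9, Spry1 and Nmnat2 (lower). Of the genes named here, the calls of Bcl2l11, Cd69, Cflar, E2f1, Hist1h2br, Ifit1bl1, Lars and Pdcd1 ended with DESeq2-style size factors. Those of Bcl2l11, Cd69, E2f1, Hist1h2br, Hist1h3e, Il10ra, Myb and Tox ended with DESeq2, which gave no adjusted p for Ccr2, Fads2 and H19. Without WT 24 h replicate 1 and again without replicate 2, those of Batf, Bcl2l11, Cd69, Cflar, Ddit4, E2f1, Eif4e3, Gadd45g, Hist1h3g, Il10rb, Lars, Lif, Ltb, Myb, Pdcd1, Srgap3, Tnfrsf18, Tnfsf8 and Tox ended, and that of Hist1h2br ended without replicate 1. The labels do not say whether the libraries of a group came from separate mice, so the p-values reflect only how far these libraries vary, which may be technical.

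**Figure D1:**
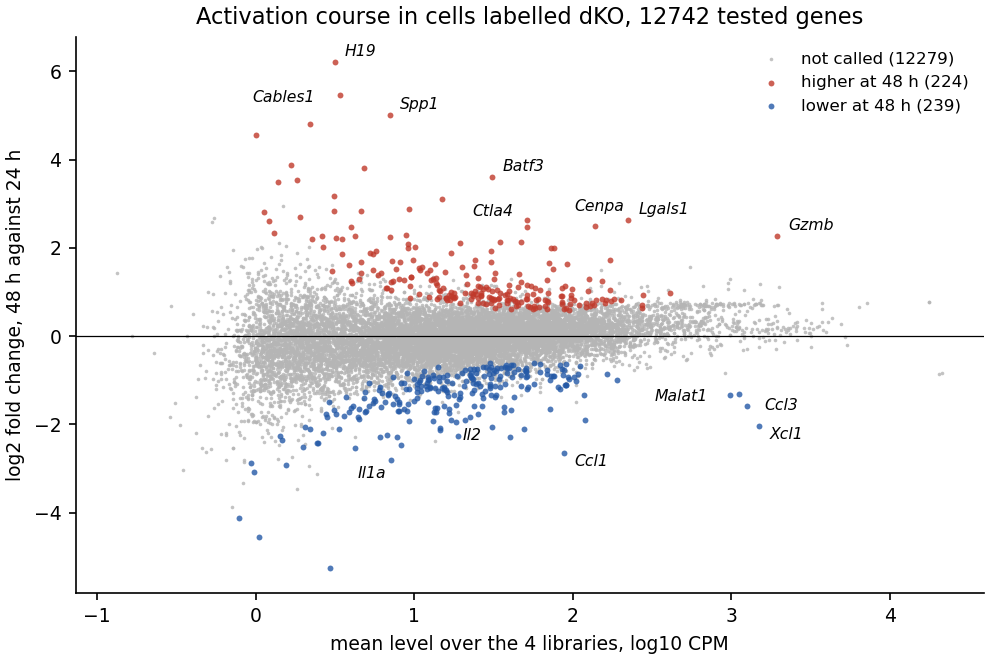
Log2 fold change from 24 to 48 h in the cells labelled dKO (vertical axis) against the mean level over the 4 libraries in log10 CPM (horizontal axis), 1 point per tested gene. The 224 genes called higher are red and the 239 called lower are blue; Gzmb stands out among the most abundant risers and Xcl1, Ccl3 and Malat1 among the most abundant genes that fell. The fitted fold changes of H19 and Cables1 rest on 1 or 2 counts at one time.

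Of the genes called, 8 are given first for their high CPM, a value not corrected for gene length. Gzmb (chromosome 14, 56258838 to 56262260), the protease granzyme B of killer cell granules, was at 649 and 692 CPM at 24 h and 3163 and 3314 CPM at 48 h. It rose by 2.27 ± 0.19 (log2 fold change ± SE, adjusted p = 0.000948 by edgeR). Xcl1, a chemokine that attracts cross-presenting dendritic cells, was at 2239 and 2597 CPM and then 594 and 576 CPM and fell by 2.05 ± 0.27 (adjusted p = 0.00403). Between the groups there was no overlap for either gene, a condition by which these genes were chosen. Ccl3 fell from 1878 and 1908 CPM to 638 and 632 CPM and Ccl4 from 1519 and 1672 CPM to 654 and 623 CPM. Both encode inflammatory chemokines of related sequence, and whether their counts share reads was not tested. The long nuclear RNA Malat1 fell from 1299.6 and 1498 CPM to 588 and 521 CPM (-1.34 ± 0.25, adjusted p = 0.0224). Kpna2 (importin alpha, a nuclear import factor), Psmb8 (a subunit of the immunoproteasome) and Prelid1 (a mitochondrial lipid transfer protein) rose, with log2 fold changes of 0.93, 0.99 and 0.71. In a bulk sample, fewer cells of a kind and less RNA per cell cannot be told apart.

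Of 72 tested genes of G2 and mitosis, 26 rose and 0 fell. The cell divides through a wave of transcripts that peaks in G2, when the cyclin B genes, mitotic kinases, centromere proteins and the anaphase-promoting machinery are made. In many such promoters a CCAAT box, bound by NF-Y, lies near a cell cycle genes homology region (CHR), where the DREAM and MuvB complexes act. The upstream stretches of the 4 list members with the smallest p are shown, with these motifs marked where they occur. Each line gives the 250 bases before the RefSeq transcription start, 5′ to 3′ on the gene's strand, with CCAAT (or ATTGG, its reverse complement) and TTTGAA (or TTCAAA) in capitals.
Cdc20: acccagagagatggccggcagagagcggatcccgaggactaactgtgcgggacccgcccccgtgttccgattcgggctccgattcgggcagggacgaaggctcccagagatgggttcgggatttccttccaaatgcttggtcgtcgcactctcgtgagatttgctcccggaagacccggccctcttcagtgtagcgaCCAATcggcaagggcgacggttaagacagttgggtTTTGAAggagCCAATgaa
Cenpa: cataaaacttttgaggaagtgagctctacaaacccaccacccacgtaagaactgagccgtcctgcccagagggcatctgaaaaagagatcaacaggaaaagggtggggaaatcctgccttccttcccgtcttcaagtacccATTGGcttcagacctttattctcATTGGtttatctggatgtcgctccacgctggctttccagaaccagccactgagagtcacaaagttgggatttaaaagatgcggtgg
Ccnb2: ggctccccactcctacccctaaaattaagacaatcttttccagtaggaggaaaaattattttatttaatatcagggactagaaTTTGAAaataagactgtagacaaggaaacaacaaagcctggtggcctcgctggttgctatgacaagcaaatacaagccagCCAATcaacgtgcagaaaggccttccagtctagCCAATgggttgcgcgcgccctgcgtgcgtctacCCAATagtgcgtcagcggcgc
Ccnb1: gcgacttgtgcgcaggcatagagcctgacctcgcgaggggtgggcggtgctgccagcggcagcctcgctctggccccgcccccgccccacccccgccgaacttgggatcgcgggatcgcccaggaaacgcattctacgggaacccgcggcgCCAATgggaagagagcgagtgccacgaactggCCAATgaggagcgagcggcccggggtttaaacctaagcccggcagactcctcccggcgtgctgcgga
In GRCm38.p6 these are chr4:118437344-118437593 (minus strand), chr5:30666636-30666885 (plus strand), chr9:70421555-70421804 (minus strand) and chr13:100786487-100786736 (minus strand). Cdc20 and Cenpa each hold 2 CCAAT motifs, Ccnb2 holds 3 and Ccnb1 holds 2, while TTTGAA occurs once in Cdc20 and once in Ccnb2. Of the 72 tested list members, 58 had a promoter in the RefSeq table. CCAAT was found in 41 of these 58 (70.7%) and TTTGAA in 21 (36.2%), on either strand, counting 1 promoter per gene. Over all 27025 promoters of that table the shares were 34.5% and 16.3%, and over the 9502 promoters of tested genes 37.3% and 11.1%. The S phase list, with 1 call, held CCAAT in 27 of 41 (65.9%) and TTTGAA in 6 (14.6%). In Cdc20 the TTTGAA lies just upstream of the second CCAAT box, and the motifs share no bases in the 4 stretches shown. A match of letters is a description of the sequence and was not tested as a binding site.

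The 26 mitotic genes called rose by 0.62 to 2.63, and the list's median of 0.53 stood beside -0.01 for all tested genes. The fit of the 4 libraries alone called 49 higher and 0 lower, and with 1 library left out the number higher ran from 6 to 45. Cdc20, the activator of the anaphase-promoting complex, stood at 34.5 and 26.7 CPM at 24 h and 120.2 and 124 CPM at 48 h (1.99 ± 0.16, adjusted p = 0.000948). Cenpa, the histone H3 variant of centromeres, was at 42.6 and 39.9 CPM and then 224 and 243 CPM (2.50 ± 0.22, adjusted p = 0.000948). Ccnb2 was at 16.2 and 12.2 CPM and then 81.3 and 97.2 CPM (2.63 ± 0.23, adjusted p = 0.000948), and Ccnb1 at 32 and 26.2 CPM and then 107 and 126 CPM (1.99 ± 0.19, adjusted p = 0.00135). These are the B-type cyclins that drive the kinase CDK1 into mitosis. In parentheses here and below stand the log2 fold change ± SE and the adjusted p of edgeR's quasi-likelihood test.

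Enzymes and spindle proteins of mitosis followed. Aurka, a spindle pole kinase, rose from 12.4 and 12.8 CPM to 43.1 and 53.3 CPM (1.93 ± 0.20, adjusted p = 0.00148), and Ube2c, the ubiquitin-conjugating enzyme of the anaphase-promoting complex, from 83.3 and 76 CPM to 255 and 273 CPM (1.73 ± 0.18, adjusted p = 0.00148). Cdca3, a regulator of mitotic entry, and Nusap1, a spindle microtubule protein, rose less, by 1.09 and 0.99. Fam64a rose by 2.47 from 0.873 and 1.67 CPM, and the symbol Pimreg, which names the same gene in newer annotations and is counted apart in this table, by 1.92 from 2.4 and 2.41 CPM. Pimreg was named after its values were seen. Outside the list, Cdkn3, a phosphatase that acts on cyclin-dependent kinases, rose from 3.06 and 3.15 CPM to 25.8 and 28 CPM (3.11 ± 0.32, adjusted p = 0.00148), and Pif1, a DNA helicase, from 2.51 and 2.41 CPM to 11.6 and 11.8 CPM (2.24 ± 0.23, adjusted p = 0.00148). Mki67, the proliferation marker that encodes Ki-67, belonged to the same list and did not pass, at 159 and 174 CPM at 24 h and 165 and 157 CPM at 48 h (-0.05 ± 0.41, adjusted p = 0.957). Its groups overlapped.

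Genes of DNA replication, by contrast, gave a share of calls near that of all tested genes. Of 52 tested genes of replication and S phase, 1 rose and 0 fell, with a median of -0.16. This was 1.92% called, beside 3.63% of all tested genes. The 1 that rose was Tk1, thymidine kinase, from 63 and 63.4 CPM to 108 and 108 CPM (0.77 ± 0.15, adjusted p = 0.0273). The call of Tk1 ended with scaling by library size alone and with the replicate block. In the fit of the 4 libraries alone 6 were higher and 18 lower, beside 19.6% higher and 17.7% lower over all genes of that fit. Mcm4, a subunit of the replicative helicase, was at 158 and 166 CPM and then 97 and 110.2 CPM (adjusted p = 0.0746 over all 8 libraries and 2.55e-09 over the 4). Of 23 G1 cyclins, kinases and E2F factors only E2f1, an activator of replication genes, was called, lower by 0.69 (adjusted p = 0.0453), and that call ended with DESeq2-style size factors, with DESeq2, with the replicate block and without either WT 24 h library. Over the 4 libraries alone 9 of that list were higher and 5 lower. Ccnd2, cyclin D2, was at 558 and 582 CPM and then 416 and 414 CPM (adjusted p = 0.167). Cdkn1a, the cell cycle inhibitor p21, was at 77 and 74.4 CPM and then 70.4 and 64.2 CPM (adjusted p = 0.455). Of 61 replication-dependent histone genes 0 rose and 4 fell, Hist1h3a, Hist1h3e, Hist1h3g and Hist1h2br, each under 20 CPM. Histone genes are near-identical copies, so their single values are uncertain. The fit of the 4 libraries alone called 2 histone genes higher and 15 lower.

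**Figure D2:**
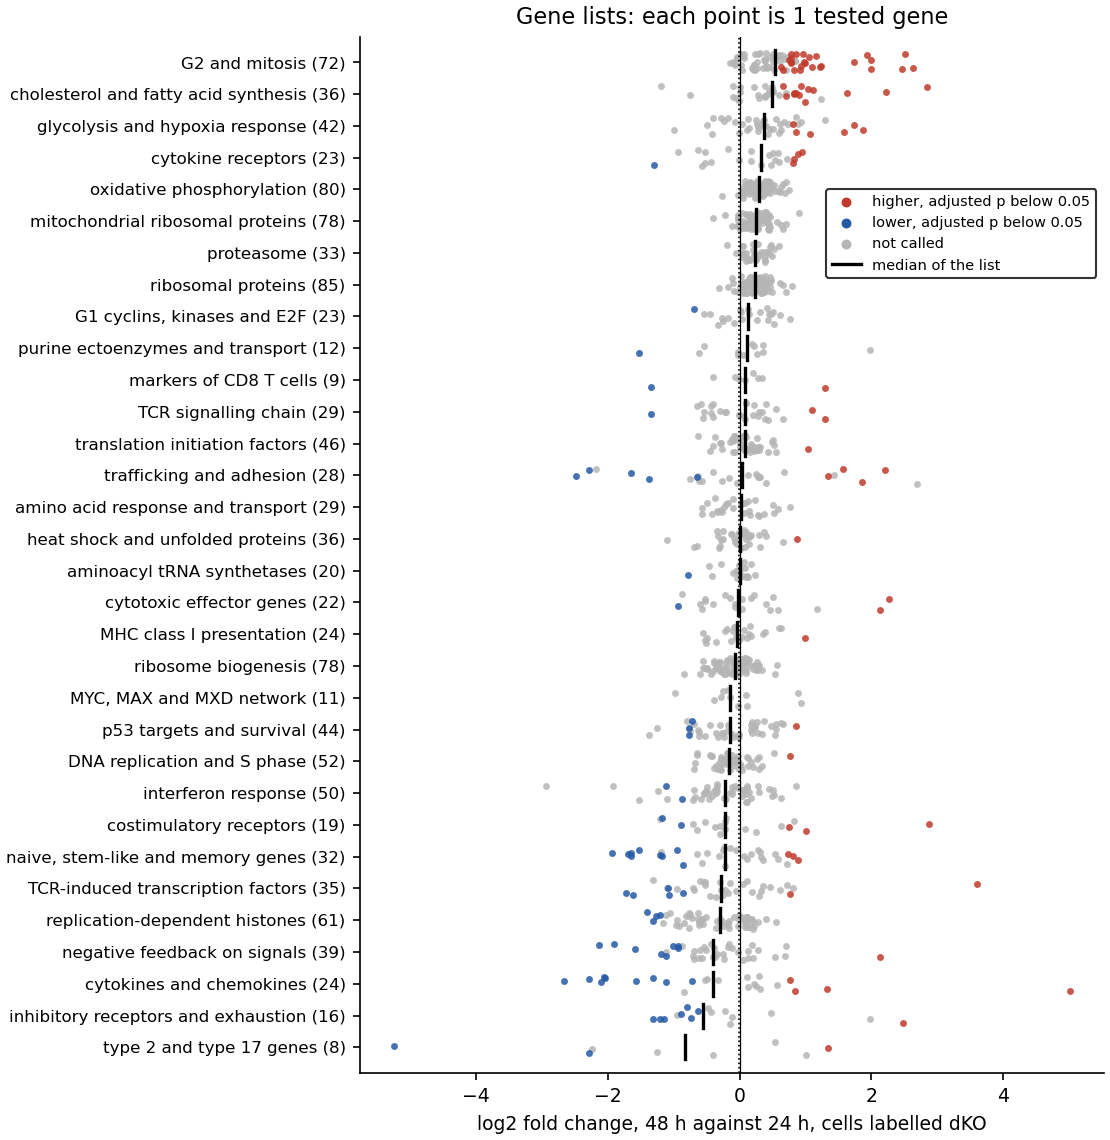
Log2 fold change from 24 to 48 h in the cells labelled dKO for the tested members of each gene list with 8 or more tested members, 1 point per gene, with the number tested in parentheses; red and blue points passed an adjusted p of 0.05 over all genes, black bars are list medians and the dotted line is the median of all tested genes. The G2 and mitosis list holds 26 red points and no blue one, and cytokines and chemokines hold 4 red and 9 blue.

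Cytokines and chemokines are the secreted signals by which an activated CD8+ T cell recruits and instructs other cells. Of 38 listed genes, 24 were tested, of which 4 rose and 9 fell, with a median of -0.41. With the 4 libraries alone the counts were 6 and 12, and with 1 library left out 1 to 5 higher and 2 to 12 lower. Ccl1, the ligand of the receptor CCR8, stood at 157 and 147 CPM at 24 h and at 26 and 22 CPM at 48 h (-2.66 ± 0.15, adjusted p = 0.000107). Its receptor gene Ccr8 fell as well, from 13.9 and 12.1 CPM to 3.27 and 2.07 CPM (-2.29 ± 0.35, adjusted p = 0.00841). Ccl9, a macrophage inflammatory chemokine, went from 73.9 and 58.8 CPM to 14.7 and 12.7 CPM (-2.28 ± 0.20, adjusted p = 0.000948). For each of these 3 genes both 48 h libraries lay below both 24 h libraries, a condition by which they were chosen.

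Among interleukins, Il2, the T cell growth factor, fell from 53.8 and 46.4 CPM to 12.6 and 11.4 CPM (-2.06 ± 0.27, adjusted p = 0.00418), in cultures that contained added IL2. Il3, a haematopoietic growth factor, fell from 88.4 and 71.6 CPM to 20.9 and 16.3 CPM (-2.11 ± 0.23, adjusted p = 0.002). Il1a, which encodes interleukin 1 alpha, fell from 14.6 and 10.4 CPM to 1.78 and 1.81 CPM (-2.80 ± 0.35, adjusted p = 0.00333). The TNF family ligand Tnfsf14 (LIGHT), which stimulates T cells and remodels lymphoid tissue, fell (log2 fold change -1.13, adjusted p = 0.0186), as did Tnfsf8, the CD30 ligand (-0.72, adjusted p = 0.0297). Tnfsf8 was named after its values were seen. The antiviral cytokine Ifng just missed the threshold, at 1208 and 1129.9 CPM at 24 h and 618 and 682 CPM at 48 h, without overlap of the groups (-0.85 ± 0.20, adjusted p = 0.0505). In the fit of the 4 libraries alone its adjusted p was 7.28e-15.

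Some secreted factors rose. Spp1, osteopontin, a matrix protein and cytokine, was at 0.546 and 0.185 CPM at 24 h, 6 counts in all, and at 15.4 and 11.9 CPM at 48 h (5.01 ± 0.45, adjusted p = 0.000948). Osm and Lif, both cytokines of the interleukin 6 family, rose by 1.33 and 0.76 (adjusted p = 0.0269 and 0.047), with Osm at 4.37 and 6.68 CPM and then 12.8 and 14.3 CPM. Ltb, lymphotoxin beta, was at 124 and 138 CPM and then 231 and 236 CPM (0.84 ± 0.19, adjusted p = 0.0486). The chemokine Ccl5, which is stored by memory and effector cells, was at 49.4 and 51.7 CPM and then 77.4 and 72 CPM (adjusted p = 0.114 over all 8 libraries and 2.28e-06 over the 4).

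The upstream stretch of Il2 is shown as a well-studied promoter of a gene that fell. NFAT factors, which calcium signals carry into the nucleus, bind sites with the core GGAAAA there. In the 250 bases before the RefSeq start, GGAAAA and its reverse complement TTTTCC are in capitals.
Il2: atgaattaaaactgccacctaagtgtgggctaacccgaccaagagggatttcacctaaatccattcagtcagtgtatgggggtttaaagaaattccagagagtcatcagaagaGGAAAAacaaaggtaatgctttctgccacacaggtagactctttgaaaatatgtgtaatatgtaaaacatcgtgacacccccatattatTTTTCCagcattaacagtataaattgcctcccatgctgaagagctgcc
The stretch is chr3:37125955-37126204 on the minus strand in GRCm38.p6 and holds 2 such matches. The same letters stood in 5 of the 21 promoters available for tested cytokines and chemokines (23.8%), against 1803 of the 9502 promoters of tested genes and 20.6% of all promoters in the table, so the shares were close.

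Transcription factors induced by the T cell receptor include the AP-1, NF-kB, EGR and NR4A families. Of 35 tested, 2 rose and 5 fell, with a median of -0.28, and the fit of the 4 libraries alone called 8 higher and 17 lower. With 1 library left out, between 0 and 16 were lower. Batf3, an AP-1 family factor of the BATF group, was at 6.33 and 2.6 CPM at 24 h and 57.6 and 58.1 CPM at 48 h (3.61 ± 0.35, adjusted p = 0.00133). Its relative Batf rose by 0.76 (adjusted p = 0.0453). The AP-1 subunits Fosl1 and Fosl2 fell, with log2 fold changes of -1.62 and -1.08 (adjusted p = 0.00316 and 0.0161). Rel, the NF-kB subunit c-Rel, fell from 56.4 and 56.2 CPM to 17.2 and 17 CPM (-1.72 ± 0.28, adjusted p = 0.0114). Egr2, a zinc finger factor that limits T cell activation, fell from 49.1 and 52.3 CPM to 24.7 and 23.3 CPM (-1.08 ± 0.17, adjusted p = 0.0101).

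Of the NR4A receptors 1 was called. Nr4a2, at the levels given above, fell by 0.87 ± 0.17 (adjusted p = 0.0262). Nr4a3, the family member that was not floxed, was at 139 and 149 CPM and then 69.2 and 64.2 CPM, without overlap, and did not pass over all 8 libraries (adjusted p = 0.0722, and 9.77e-17 over the 4). Nr4a1 was higher in both 48 h libraries, by 0.33 ± 0.26, with an adjusted p of 0.477, and 0.000352 over the 4. Irf4, which supports expansion of activated T cells, was at 157 and 142 CPM and then 89 and 92.8 CPM (adjusted p = 0.0811). Myc, a driver of growth after activation, was at 146 and 142 CPM and then 149.6 and 160.4 CPM (log2 fold change 0.11, adjusted p = 0.71, and -0.06 with scaling by library size alone), and 0 of the 11 tested genes of its network were called, with 2 higher and 1 lower in the fit of the 4 libraries alone.

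**Figure D3:**
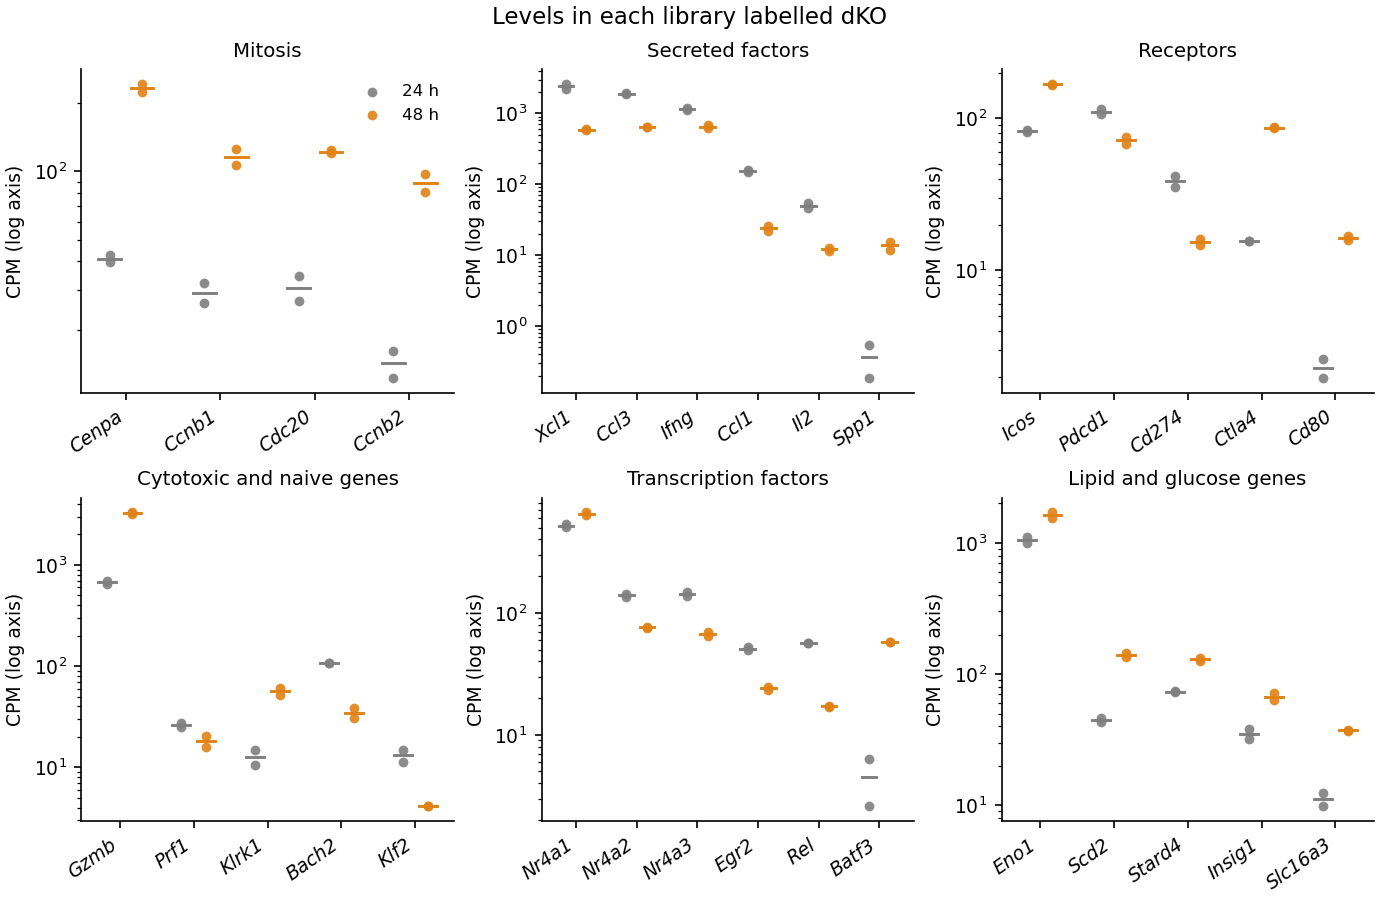
Level in each of the 4 libraries labelled dKO in CPM (log axes), with 24 h in grey and 48 h in orange; each point is 1 library and each bar the mean of 2. Cenpa, Ccnb1, Cdc20, Ccnb2, Gzmb, Ctla4 and Batf3 lie higher at 48 h and Xcl1, Ccl3, Ccl1, Il2, Cd274, Bach2 and Rel lower, with no overlap, while Prf1, Ifng, Nr4a1, Nr4a3 and Eno1 did not pass the test over all 8 libraries.

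Feedback genes dampen the signals that induce them. Of 39 tested negative feedback genes 1 rose and 8 fell, with a median of -0.40. The fit of the 4 libraries alone called 4 higher and 23 lower, and with 1 library left out 1 to 20 were lower. On the ERK pathway, Spry1, a Sprouty inhibitor, fell from 21.6 and 26.2 CPM to 5.2 and 5.57 CPM (-2.14 ± 0.21, adjusted p = 0.00133), and Dusp6, an ERK phosphatase, from 37.1 and 34.3 CPM to 12.3 and 11.5 CPM (-1.58 ± 0.18, adjusted p = 0.00239). The regulators of G protein signals Rgs2, Rgs16 and Rgs1 fell, with log2 fold changes of -1.91, -0.94 and -1.01. Ubash3b, a phosphatase that restrains T cell receptor kinases, fell (log2 fold change -0.93), as did Tnfaip3, the NF-kB inhibitor A20 (-1.19). Zfp36l1, which promotes decay of cytokine mRNAs, fell from 120.0 and 129 CPM to 56.3 and 58.6 CPM (-1.11 ± 0.15, adjusted p = 0.00523). The 1 that rose was Socs2, a feedback inhibitor of JAK and STAT signals, which rose from 17.9 and 17.2 CPM to 70.7 and 83 CPM (2.13 ± 0.21, adjusted p = 0.00133). Of the 29 tested genes of the receptor signalling chain, 2 rose and 1 fell, and over the 4 libraries alone 12 and 11. Cd2, an adhesion and costimulatory receptor, rose from 70.1 and 76.6 CPM to 179 and 180.1 CPM (1.29 ± 0.15, adjusted p = 0.00288), and Sla2, an adaptor that promotes receptor turnover, by 1.09. Cd5, a receptor that tunes down antigen signals, fell from 179 and 162 CPM to 67 and 67.2 CPM (-1.34 ± 0.16, adjusted p = 0.00316).

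Inhibitory receptors and their ligands restrain activated T cells. Of 16 tested genes of inhibition and exhaustion, 1 rose and 7 fell (median -0.56), and over the 4 libraries alone 2 and 9. With 1 library left out 0 to 8 were lower. The 1 that rose was Ctla4, whose product competes with CD28 for its ligands, at 15.6 and 15.6 CPM at 24 h and 86.2 and 87.8 CPM at 48 h (2.48 ± 0.23, adjusted p = 0.00106). The ligands of PD-1 fell, Cd274 (PD-L1) from 35.4 and 41.5 CPM to 16.2 and 14.8 CPM (-1.31 ± 0.19, adjusted p = 0.00749) and Pdcd1lg2 (PD-L2) from 70.9 and 73.3 CPM to 31.5 and 31 CPM (-1.21 ± 0.15, adjusted p = 0.00303). The receptor itself, Pdcd1, fell from 115 and 107 CPM to 75.6 and 67.8 CPM (-0.63 ± 0.15, adjusted p = 0.0483), close to the threshold. Lag3, an inhibitory receptor for MHC class II, and Tox, a transcription factor of exhaustion, fell, with log2 fold changes of -0.74 and -0.80 (adjusted p = 0.0216 and 0.0356). Vsir (VISTA) and Cd160, also inhibitory receptors, fell, with log2 fold changes of -1.15 and -0.89.

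Costimulatory receptors went both ways, with 3 of 19 tested higher and 2 lower, and 6 and 9 over the 4 libraries alone. Cd80, the B7 ligand of CD28 and CTLA-4, went from 1.96 and 2.6 CPM to 16.8 and 15.9 CPM (2.87 ± 0.24, adjusted p = 0.000948). Icos, an inducible relative of CD28, rose from 83.7 and 81.8 CPM to 168 and 166 CPM (1.01 ± 0.13, adjusted p = 0.00418), and Tnfrsf18 (GITR) by 0.75. Cd226 (DNAM-1), which recognises stressed targets, fell from 95.3 and 93.1 CPM to 51.5 and 49.8 CPM (-0.90 ± 0.13, adjusted p = 0.00663), and Slamf1, a homophilic receptor of lymphocytes, fell by 1.19 (adjusted p = 0.00858).

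Cytotoxic genes other than Gzmb were called in both directions. Of 33 listed genes, 22 were tested, of which 2 rose, Gzmb among them, and 1 fell. This was 13.6% called, beside 3.63% of all tested genes. The fit of the 4 libraries alone called 5 higher and 6 lower. Klrk1, the activating receptor NKG2D, rose from 14.8 and 10.6 CPM to 52.4 and 60.5 CPM (2.13 ± 0.25, adjusted p = 0.00268). Serpinb9, an inhibitor that protects killer cells from their own granzyme B, fell from 138 and 108 CPM to 62.4 and 66.5 CPM (-0.94 ± 0.16, adjusted p = 0.0122). Prf1, the pore-forming protein perforin, was at 25.2 and 27.6 CPM and then 16 and 20.5 CPM (adjusted p = 0.155 over all 8 libraries and 0.00327 over the 4), and Srgn, the proteoglycan that packs granules, at 646 and 599 CPM and then 429 and 438 CPM (adjusted p = 0.209). Gzma, granzyme A, stayed under 3 CPM in all 4 libraries. Serpina3g, a protease inhibitor of activated T cells from a cluster of similar genes, rose from 0.764 and 1.67 CPM to 6.98 and 9.2 CPM (2.84 ± 0.36, adjusted p = 0.00333).

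Genes of naive, stem-like and memory cells gave 9 lower and 3 higher of 32 tested (median -0.23). Over the 4 libraries alone 16 were lower and 9 higher, and with 1 library left out 0 to 13 were lower. Bach2, a repressor that keeps T cells from effector fate, fell from 108 and 108 CPM to 38.5 and 30.7 CPM (-1.65 ± 0.23, adjusted p = 0.00626). Klf2, which controls exit from lymphoid tissue, fell from 11.4 and 15 CPM to 4.16 and 4.15 CPM (-1.65 ± 0.25, adjusted p = 0.00882), and the related Klf3 fell too (log2 fold change -1.18). Igfbp4, a binding protein of insulin-like growth factors that naive cells express, fell (log2 fold change -1.94), as did Il6ra, the interleukin 6 receptor (-1.70), and Nt5e (CD73), which makes adenosine outside the cell (-1.53). Cd44, an adhesion receptor of activated and memory cells, fell from 93.4 and 85.3 CPM to 51.5 and 46.9 CPM (-0.86 ± 0.16, adjusted p = 0.0186). Tcf7, the gene of the stem-like T cell factor TCF1, was at 58.8 and 67.9 CPM and then 54.4 and 51.5 CPM and did not pass (adjusted p = 0.291 over all 8 libraries and 0.0353 over the 4).

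The 3 members of that list that rose were Myb, a factor of self-renewing T cells (0.74, adjusted p = 0.0497), and 2 cytokine receptor genes. Il7r, the interleukin 7 receptor, rose from 13.6 and 11.7 CPM to 24.2 and 22.9 CPM (0.89 ± 0.18, adjusted p = 0.0297), and Il2rb, the interleukin 2 receptor beta chain, from 98.2 and 104 CPM to 174 and 181 CPM (0.82 ± 0.13, adjusted p = 0.0121). Of the 23 tested cytokine receptors 4 rose and 1 fell, and over the 4 libraries alone 11 and 5. The 4 rises stayed 4 with DESeq2-style size factors and became 1 with scaling by library size alone and 1 with the replicate block. Both chains of the interleukin 10 receptor were among the risers, Il10ra by 0.94 and Il10rb by 0.83 (adjusted p = 0.0486 and 0.0333). Tgfbr1, a chain of the TGF-beta receptor, fell from 31.5 and 33.9 CPM to 14.1 and 12.6 CPM (-1.29 ± 0.18, adjusted p = 0.00583).

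Trafficking genes steer T cells between lymph node, blood and tissue. Of 28 tested trafficking genes 4 rose and 5 fell, and 7 and 10 in the fit of the 4 libraries alone. Ccr4, a chemokine receptor of activated T cells, rose by 1.33. Ccr2, a receptor for monocyte chemokines, rose from 0.982 and 0.556 CPM to 3.27 and 4.28 CPM (adjusted p = 0.0301). Fut7, which builds selectin ligands, rose by 1.85. Itgae, the integrin CD103 that holds cells in epithelia, fell from 11.8 and 16.5 CPM to 2.53 and 2.46 CPM (-2.48 ± 0.31, adjusted p = 0.00333). Cxcr6, a receptor of tissue T cells, fell from 24.3 and 26 CPM to 6.83 and 9.07 CPM (-1.65 ± 0.26, adjusted p = 0.0101). Cd69, an early activation antigen that retains cells in tissue, fell (log2 fold change -0.65, adjusted p = 0.0484), as did St3gal1, a sialyltransferase (-1.37).

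Genes of lipid synthesis gave 13 calls, all higher. Cells that divide build membrane, and the SREBP factors switch on the enzymes of cholesterol and fatty acid synthesis together. Of 36 tested genes 13 rose and 0 fell (median 0.50). Over the 4 libraries alone 26 were higher and 2 lower, and with 1 library left out 1 to 22 were higher. Scd2, a stearoyl-CoA desaturase, rose from 46.5 and 43 CPM to 135 and 144 CPM (1.63 ± 0.18, adjusted p = 0.00188), and its paralogue Scd1 from 0.764 and 0.742 CPM to 4.46 and 6.48 CPM (2.84 ± 0.43, adjusted p = 0.00841). The sterol enzymes Msmo1 and Lss rose by 1.11 and 1.00, and Acat2, which starts the pathway by joining acetyl-CoA units, by 0.91. Insig1, which holds SREBP back in the endoplasmic reticulum, rose from 37.9 and 32.1 CPM to 71.7 and 62.9 CPM (0.94 ± 0.17, adjusted p = 0.0198). Stard4, a sterol carrier, rose from 72.4 and 74.2 CPM to 133 and 126 CPM (0.82 ± 0.16, adjusted p = 0.0252), and Fads2, a fatty acid desaturase, by 2.23.

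Glycolysis and hypoxia genes gave 6 higher and 0 lower of 42 tested (median 0.37), and 25 and 3 over the 4 libraries alone. With 1 library left out 0 to 19 were higher. Slc16a3, the lactate exporter MCT4, rose from 12.3 and 9.83 CPM to 37.4 and 36.9 CPM (1.73 ± 0.21, adjusted p = 0.00317). Bnip3, a mitophagy receptor that hypoxia induces, rose from 6 and 8.9 CPM to 25.7 and 27.9 CPM (1.88 ± 0.27, adjusted p = 0.00608). Egln3, an oxygen-sensing hydroxylase, Ddit4, an inhibitor of mTORC1, and Eno3, an enolase, rose by 1.06, 0.81 and 0.86, and Anxa2, a membrane-binding annexin, by 1.58. Another enolase gene, Eno1, was at 999 and 1108 CPM and then 1713 and 1552 CPM (adjusted p = 0.093 over all 8 libraries and 2.09e-10 over the 4).

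Large sets of housekeeping genes had small positive medians and 0 calls over all 8 libraries. Of 80 tested subunits of oxidative phosphorylation 78 had a positive log2 fold change (median 0.29), 0 were called, and the fit of the 4 libraries alone called 54 higher. For 85 cytosolic ribosomal proteins the median was 0.23, with 0 and 47 called. For 78 mitochondrial ones it was 0.25, with 0 called over all 8 libraries and 40 higher and 2 lower over the 4. For 33 proteasome subunits it was 0.24, with 0 and then 20 higher and 1 lower. Ribosome biogenesis genes did not share this sign, with a median of -0.07 over 78 genes, 0 called over all 8 libraries and 9 higher and 24 lower over the 4. By DESeq2 the counts called in these 5 lists were 0, 2, 3, 0 and 0, all higher. With scaling by library size alone the medians were 0.12, 0.06, 0.08, 0.07 and -0.23. Of the 145 genes in near-constant ratio, Cox7b, a subunit of cytochrome oxidase, is in the first list, Rpl10l, a ribosomal protein gene of the testis, in the second and Mrpl46 and Mrpl27 in the third, and their part in those lists' medians was not tested.

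The remaining lists gave few calls over all 8 libraries and more over the 4 alone. All tested genes did the same, with 3.63% and 37.3% called, so this pattern was not particular to the lists. Of 50 tested interferon response genes 0 rose and 2 fell, the GTPases Irgm1 and Gbp2, from 63.5 and 66 CPM to 26.7 and 32.5 CPM (-1.13 ± 0.15, adjusted p = 0.0045) and from 102 and 125 CPM to 60.2 and 63.3 CPM (-0.87 ± 0.16, adjusted p = 0.0224), while over the 4 libraries alone 4 rose and 17 fell. Of 24 genes of MHC class I presentation only Psmb8 was called, at 272 and 281 CPM at 24 h and 548 and 547 CPM at 48 h (0.99 ± 0.16, adjusted p = 0.0101). Its partner subunit genes Psmb9 and Psmb10 had log2 fold changes of 0.60 and 0.63 (adjusted p = 0.101 and 0.0783), and over the 4 libraries alone 5 of the list were higher and 6 lower. Of 44 p53 target and survival genes Gadd45g, a stress sensor, rose by 0.85, while Cflar, an inhibitor of caspase 8, Bcl2l11, the death inducer BIM, and Trp53inp1, a p53 effector, fell, with log2 fold changes of -0.77, -0.73 and -0.77. The 3 falls in that list became 1 with DESeq2-style size factors, 0 with the replicate block and 1 without WT 24 h replicate 1 or without replicate 2, and the 4 libraries alone gave 8 higher and 14 lower. Of 36 chaperone and unfolded protein genes Xbp1, a transcription factor of that response, rose from 70.9 and 66.8 CPM to 126 and 125 CPM (0.87 ± 0.16, adjusted p = 0.0205), with 6 higher and 9 lower over the 4 alone. Of 46 initiation factor genes Eif4e3, a cap-binding protein, rose by 1.04, and of 20 tRNA synthetase genes Lars, for leucine, fell by 0.79 (adjusted p = 0.0486). The 4 libraries alone gave 14 initiation factor genes higher and 6 lower, and 0 synthetase genes higher and 4 lower. Of 29 amino acid response and transport genes 0 were called over all 8 libraries, and 4 were higher and 6 lower over the 4. The 12 genes of extracellular purines gave the call of Nt5e already given, and the 8 of type 2 and type 17 cells calls that include Ccr8 and Ccr4. Over the 4 libraries alone these lists gave 4 higher and 2 lower, and 3 higher and 4 lower.

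Several of the largest changes were outside these lists. H19, an imprinted long RNA, had 1 count in the 24 h libraries and 90 in the 48 h libraries, a ratio of 90.7 (exact 95% counting interval 15.9 to 3620.5), and an adjusted p of 0.0121. Cables1, a binding partner of cyclin-dependent kinases, had 2 and 96 counts, a ratio of 48.4 (13.0 to 405), and an adjusted p of 0.00148. Both genes were near the limit of detection at 24 h, so the size of their changes is poorly bounded. Lgals1, galectin 1, a secreted lectin of effector cells, rose from 56.1 and 68.8 CPM to 403 and 363 CPM (2.62 ± 0.25, adjusted p = 0.00133). Hemgn, a nuclear protein known from blood progenitors, rose from 0.437 and 0.927 CPM to 7.72 and 10.1 CPM (3.80 ± 0.43, adjusted p = 0.00209), and Igfbp7, a secreted growth factor binding protein, from 0.655 and 0.556 CPM to 5.35 and 5.96 CPM (3.17 ± 0.39, adjusted p = 0.00316). Lrrc32, the surface anchor GARP of latent TGF-beta, rose by 2.26, and Drc1, a component of ciliary dynein complexes, by 2.30.

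Among falls outside the lists, Cpd, a carboxypeptidase of the secretory pathway, went from 33.1 and 29.1 CPM to 6.83 and 6.22 CPM (-2.26 ± 0.30, adjusted p = 0.0045). Utf1, a chromatin factor of stem cells, went from 24.1 and 23 CPM to 5.79 and 5.32 CPM (-2.09 ± 0.23, adjusted p = 0.00209). Npas4, an activity-induced transcription factor, went from 17.6 and 24.3 CPM to 6.83 and 4.15 CPM (-1.93 ± 0.33, adjusted p = 0.0144). All 3 were lower in both 48 h libraries than in either 24 h library, a condition by which they were chosen. Nmnat2, an enzyme of NAD synthesis, fell (log2 fold change -2.28), as did Bdh2, a dehydrogenase (-2.53), Srgap3, a GTPase-activating protein (-2.24), and Zbtb20, a zinc finger repressor (-1.93). Ifi214 and Ifit1bl1, which belong to interferon-inducible families of similar genes whose counts may be shared, fell, with log2 fold changes of -2.19 and -2.11.

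Whether this course differed from that of WT cells was asked with the interaction of genotype and time. It was called for 0 of 12742 genes (0%), with a smallest adjusted p of 0.369 by edgeR. At an unadjusted p below 0.05 there were 436 genes with a more positive and 1138 with a more negative change in the cells labelled dKO, and DESeq2 called 0. The number called by edgeR after adjustment changed with the WT libraries in the fit. It was above 0 without WT 48 h replicate 1, without WT 48 h replicate 2 and without WT 24 h replicate 1. Each of these fits left 1 library in a WT group, and the cause was not tested. The genotypes also differed in Xist, the RNA of the inactive X chromosome. It stood at 0.655 and 1.67 CPM and then 0.743 and 0.907 CPM in the libraries labelled dKO. In WT it stood at 774 and 687 CPM and then 386 and 816 CPM. Genotype and this difference cannot be told apart. Of the 439 genes described here, 430 had the same sign in WT, against 63.5% of all tested genes. The 439 were chosen by their calls, whereas all tested genes include changes near 0 whose sign depends on the scaling. The 2 shares are therefore not a like comparison. The WT comparison called 11.4% of tested genes, and 250 of the 439 were among them in the same direction (56.9% of these genes and 17.3% of the WT calls) and 0 in the opposite one.

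Values of single genes are given side by side. Gzmb rose by 2.27 in the cells labelled dKO and by 2.59 in WT, and Cenpa by 2.50 and 2.45. Cenpa belongs to the G2 and mitosis list, whose median was 0.53 in the cells labelled dKO and 1.06 in WT. Of its 72 tested genes 25 had an unadjusted interaction p below 0.05 by edgeR, beside 436 and 1138 of all 12742 given above. A difference of the list as a whole was not tested. Among the genes named above, the 3 with the smallest unadjusted interaction p were Cdkn1a (-0.17 in cells labelled dKO and 0.87 in WT, adjusted p = 0.369), Ccl1 (-2.66 and -1.45, adjusted p = 0.369) and Pdcd1 (-0.63 and 0.35, adjusted p = 0.369). By the same edgeR test Il3 had -2.11 and -0.46 (adjusted p = 0.369), Il6ra -1.70 and -0.29 (adjusted p = 0.369) and Psmb8 0.99 and 0.20 (adjusted p = 0.369). Mki67 had -0.05 and 1.69 (adjusted p = 0.369). None of these passed adjustment over all genes in edgeR's test, so a difference between genotypes was not shown for any of them.

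**Figure D4:**
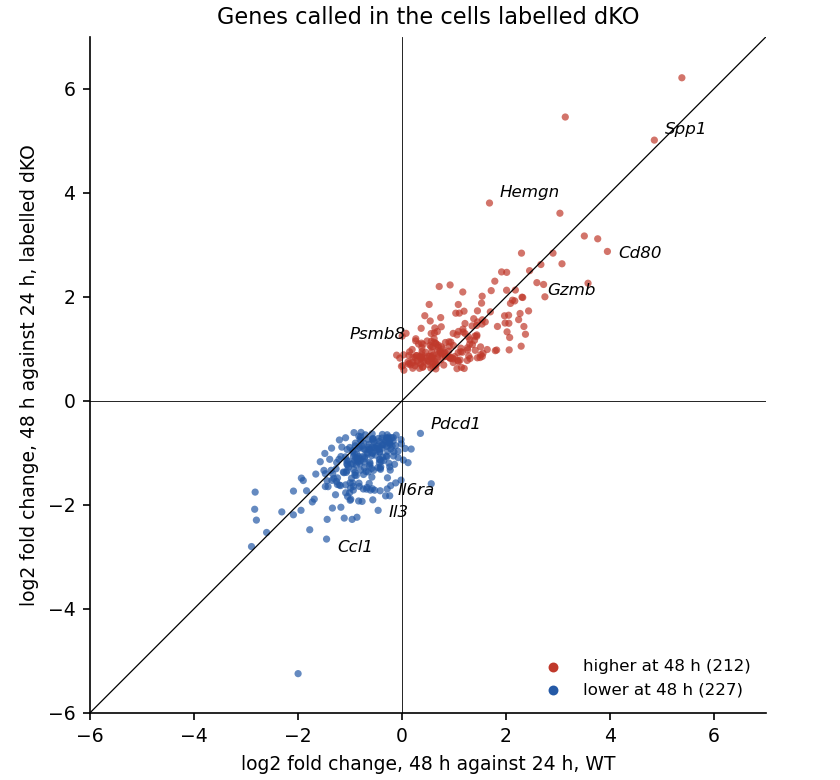
Log2 fold change from 24 to 48 h in the cells labelled dKO (vertical axis) against the same in WT (horizontal axis) for the 439 genes called in the cells labelled dKO, with the line of equal change. The 212 genes higher at 48 h are red and the 227 lower are blue; 430 of them lie in the quadrants of equal sign, and Pdcd1 is 1 of the 9 that do not.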

How the data were processed

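Each of the 8 bulk RNA libraries of mouse CD8+ T cells is a column of whole-number counts in the table the authors deposited, with genes given by symbol. The submitters' processing notes name cutadapt 1.18 for trimming, Bowtie2 2.2.5 for alignment and mm10 as the genome. How reads were counted, with which annotation and strand rule, is not given in the sources used here. Reads of overlapping genes on opposite strands may therefore be shared. Of the genes named here with 1 entry in GENCODE M21, 51 of 159 overlap a gene on the other strand. An unnamed entry equal to the sum of all named genes in each column was left out of library sizes and tests. Low counts per library limit precision: a count of 0 allows up to 3 counts, 0.362 to 0.600 CPM in the libraries labelled dKO, and intervals and floors cover counting error only.

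Counts were tested with edgeR 4.0.16 in R 4.3.3, by a two-sided quasi-likelihood F test with a mean per group, TMM scaling, filterByExpr at a minimum count of 10 and Benjamini-Hochberg adjustment over all tested genes. Each SE was obtained by dividing the size of the log2 fold change by the root of its F. All 8 libraries entered the fit, so the groups shared 1 estimate of spread. The median absolute log2 difference between replicates was 0.158 and 0.149 in the libraries labelled dKO at 24 and 48 h and 0.195 and 0.364 in WT. A count of 1 to 3 in a group gave an exact 95% interval of the ratio. Alternatives were other scalings, DESeq2 1.42.0, other filters, the 4 libraries alone, a replicate block and leaving out each library; leaving out both WT 48 h libraries was chosen after the data were seen. The fit was tested on simulated data.

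The members, the 38 gene lists and the tests were chosen with earlier results of these data known. Named genes are 14 that are always given (the Nr4a genes, Tcf7, Cd8a, Myc, Ifng, Il2, Gzmb, Prf1, Pdcd1, Tox, Mki67 and Cdkn1a), up to 20 called genes per direction with the largest change, up to 8 members of each list per direction with the smallest p, every member of lists with at most 12 tested, and the 8 called genes with the highest level. No gene of the interaction was called. Predicted and clone-named genes, 17 of the 439, were counted but not named. A few genes that the rule names are not reported here. Csrp3, Ropn1, Odf4 and Tnp2 are the muscle and testis list. Promoter sequences are those of RefSeq on GRCm38.p6, and gene positions those of GENCODE M21 on GRCm38.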

Additional observations from a re-analysis of the deposited data

How the results depend on the processing

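Against 224 genes higher and 239 lower, DESeq2 called 367 and 253 of 11012 genes (59.2% higher against 48.4%), scaling by library size alone 143 and 594 (19.4% higher), and no filter on low counts 880 and 769. The 4 libraries labelled dKO alone gave 2386 and 2159, and leaving out both WT 48 h libraries, chosen after the data were seen, 1624 and 1592. DESeq2-style size factors gave 235 and 194 (54.8% higher), and a mean of at least 50 counts 180 and 192. Leaving out 1 library gave between 21 and 1769 genes higher and between 8 and 1586 lower. The interaction went from 0 and 0 genes to 11 and 159 with no filter, and ranged from 0 to 1538 and from 0 to 1922 with 1 library left out. The cause was not tested.

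Of 160 genes named, 132 were called. Of these 124 kept the call with DESeq2-style size factors, 120 with library size alone, 121 of the 129 to which it gave an adjusted p with DESeq2, and 104 with the replicate block. All 132 kept it in the 4 libraries alone and without either WT 48 h library, and 27, 44, 33 and 25 kept it without dKO 24 h replicate 1, 24 h replicate 2, 48 h replicate 1 and 48 h replicate 2. No called gene named changed sign under the alternatives run. Of those not called, Myc went to -0.0635 with scaling by library size alone, and Cd8a (-0.01), Mki67 (-0.05) and Xist (-0.34) changed sign in at least 1 setting.

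The replicate numbers are shared only as numbers: deviations of same-numbered libraries correlated at -0.06 in the libraries labelled dKO and -0.01 in WT. With the replicate number as a block, 161 genes were higher and 160 lower over all libraries, and 2219 and 2006 over the 4 alone. Depth limits genes of few counts such as H19 and Cables1.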
